A study of Homo sapiens with 34 samples.

Results

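The clustered histone genes are the loci whose symbol begins with HIST1H, HIST2H, HIST3H, or HIST4H. By this rule on names, which used no measured value, 72 of the 28690 loci in the RNA-seq tables were members, and 25 of them had a mean FPKM (fragments per kilobase of transcript, scaled to the size of the library) of at least 1 over 24 libraries. The cells were *Bmal1*:*luc* U2OS, which come from a human bone tumor (osteosarcoma) and carry luciferase driven by the *Bmal1* promoter. Dexamethasone had been used to synchronize them, and they received either 5 mM 6-aminonicotinamide (6AN), which inhibits the pentose phosphate pathway, or DMSO, the control. RNA was sequenced at 12 time points per condition, labelled CT0 to CT44 and spaced by 4 hr, with 1 library for each time point and condition, and the labels describe the RNA as depleted of rRNA. The CT labels are used as given, and CT0 is not taken here as the start of treatment. ChIP-seq of BMAL1, CLOCK, H3K4me3, H3K9ac, and input added 10 libraries, 1 per antibody and condition. The chromatin was taken after 24 hr of incubation, which was not matched to a CT label. Both conditions share the reporter, the synchronization, and the tumor line itself, so there is no untransformed cell in the comparison.

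Histones wrap DNA into nucleosomes. Each nucleosome core holds H2A, H2B, H3, and H4, and the linker histone H1 binds where DNA enters and leaves it. Cells make most of these proteins from clusters of small, intronless genes that are transcribed during S phase, when new DNA has to be packaged. The mRNAs of these replication-dependent genes end in a conserved stem-loop, which is bound by SLBP, in place of a poly(A) tail. Some clustered genes also yield longer, polyadenylated transcripts, which are known from cells that have left the cycle. Replacement histones come from genes outside the clusters, and some of them, such as H3.3 and H2A.Z, have mRNAs with poly(A) tails and are made throughout the cycle.

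The depth behind each value was small for most of these genes. For 51 of the 54 members above 0, the FPKM in all 24 libraries were whole multiples (within 0.1) of a fitted, locus-specific step. This step was read as the worth of 1 fragment. It came from the span of the locus, so it can be too small for a long one. *HIST2H2BF* (29685 bp, mean 0.047 FPKM) is such a case, with up to 101 fragments read in a library, and its counts are not used. The scaling of the libraries matched 4110000 to 9290000 fragments in control and 4270000 to 9530000 in 6AN. For members of up to 1000 bp, 1 fragment stood for 0.257 to 1.004 FPKM at the mean depth. Members with a mean of at least 5 FPKM rested on medians of 11 to 196 fragments per library where these could be read, and those with a mean of 1 to 5 FPKM on medians of 1 to 4.5. A sum of few fragments has a large counting error, and values of the second set are therefore described with caution. The limit of 5 FPKM was set after the values were seen.

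The 6AN library at CT8 stood apart. Small RNAs that carry no poly(A) tail, which were picked after their values were seen, were far higher in it than in any other library. *RN7SK*, the RNA of the 7SK particle, had 2639 FPKM in this library compared with 115.5 to 238.5 in the other 11 libraries of 6AN and 146.4 to 210.1 in control. *RMRP*, the RNA of RNase MRP, had 2215 FPKM compared with 50.02 to 129.9 and 72.8 to 132.6. *RPPH1*, the RNA of RNase P, had 1345 FPKM compared with 15.6 to 101.5 and 13.3 to 28.4. Of the 25 histone loci, 9 (36%) had their highest FPKM of all 24 libraries in this one, compared with 491 of all 13979 loci with a mean FPKM of at least 1 (3.51%). This count is in part circular. *HIST1H1E*, *HIST2H2AB*, and *HIST1H3B* are among the 9 and passed the limit of 1 only through this library. Their means without it were 0.874, 0.716, and 0.858 FPKM. Results that this library moved are therefore given with it and without CT8, and the part of the small RNAs in them was not tested.

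Of the 72 member loci, 61 had a promoter in the RefSeq table (build GRCh38.p14), 22 of them with a mean FPKM of at least 1. The 150 bases before the annotated start are shown for the 4 most abundant members. Capitals mark 4 elements on either strand: the TATA box as TATAAA, the CCAAT box, the octamer bound by OCT1 as ATTTGCAT, and an element of H1 promoters as AAACACA.
*HIST1H2BK* (H2BC12), chr6:27146859-27147008, minus strand: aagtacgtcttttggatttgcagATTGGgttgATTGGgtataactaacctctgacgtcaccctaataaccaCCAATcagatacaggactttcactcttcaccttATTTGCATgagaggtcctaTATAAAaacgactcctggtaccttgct
*HIST1H2BD* (H2BC5), chr6:26157971-26158120, plus strand: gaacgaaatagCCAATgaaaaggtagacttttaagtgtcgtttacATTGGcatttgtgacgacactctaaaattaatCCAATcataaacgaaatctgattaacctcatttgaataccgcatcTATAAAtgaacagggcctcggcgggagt
*HIST1H2AC* (H2AC6), chr6:26124022-26124171, plus strand: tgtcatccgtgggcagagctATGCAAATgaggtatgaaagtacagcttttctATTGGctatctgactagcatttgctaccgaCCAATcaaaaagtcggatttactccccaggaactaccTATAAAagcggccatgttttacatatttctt
*HIST1H1C* (H1-2), chr6:26056471-26056620, minus strand: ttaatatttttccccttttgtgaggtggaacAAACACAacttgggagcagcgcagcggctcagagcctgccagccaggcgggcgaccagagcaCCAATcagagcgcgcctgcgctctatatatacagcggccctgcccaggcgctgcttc
In *HIST1H2BK* the octamer began 46 bases and TATAAA 27 bases before the start. *HIST1H2AC* had the octamer on the other strand, 130 bases before its start, and *HIST1H2BD* had no octamer in this window but CCAAT in 3 places, 1 of them on the other strand. Of the elements searched, *HIST1H1C* held AAACACA at 119 bases and CCAAT at 57 bases.

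The promoters of *HIST1H4H* and *HIST1H4E* are shown because they were the member promoters under a BMAL1 peak. They held none of the elements above, and capitals here mark runs of at least 12 bases that both share.
*HIST1H4H* (H4C8), chr6:26285535-26285684, minus strand: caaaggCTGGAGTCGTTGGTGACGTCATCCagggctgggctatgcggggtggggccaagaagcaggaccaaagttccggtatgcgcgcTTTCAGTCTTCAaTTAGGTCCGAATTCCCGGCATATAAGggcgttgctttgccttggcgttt
*HIST1H4E* (H4C5), chr6:26204460-26204609, plus strand: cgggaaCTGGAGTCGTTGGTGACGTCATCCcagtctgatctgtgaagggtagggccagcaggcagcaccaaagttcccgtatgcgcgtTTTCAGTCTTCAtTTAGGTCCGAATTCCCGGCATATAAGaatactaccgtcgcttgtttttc
The 150 bases of this pair were the same at 115 positions (76.7%), and 3 shared runs made up 62 bases, the longest of them 26 bases. Over the 250 bases before the start, CCAAT occurred in 6 of 6 H1, 15 of 15 H2A, 20 of 20 H2B, and 12 of 12 H3 promoters, but in 3 of 12 H4 promoters (25%). Among all 35116 promoters of this length, 32.01% held it. The octamer was found in 11 of 15 H2A and 15 of 20 H2B promoters, in 1 of 12 H3 promoters, and in 0 of the H1 and H4 promoters, compared with 1.63% of all promoters. AAACACA was present in 6 of 6 H1 promoters and in 0 of the other types, compared with 4.82% of all. TATAAA was found in 43 of 65 member promoters (66.2%), compared with 10.7% of all. The E-box CACGTG, a sequence that BMAL1 and CLOCK can bind, was in 0 of the 65 member promoters and in 6.34% of all. These shares describe letters within a window, and gene copies of one type share ancestry. They are also not independent between H2A and H2B. In 11 head-to-head pairs of these types the starts had 193 to 247 bases between them. The windows of such a pair hold the same bases, so 1 element can count for both types.

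In these libraries most clustered histone genes were at or near 0, and a few made up nearly all of the signal. Levels describe the RNA that was captured, and how well mRNAs without a poly(A) tail were captured was not tested. The 62 loci with a mean under 5 FPKM summed to 101.3 FPKM in the 6AN library at CT8, which stood apart. Their sum was 27 to 49.3 in control and 20.5 to 36.8 in 6AN without CT8. Of the 72 loci, 18 were listed at 0 in all 24 libraries, 29 had a mean above 0 but under 1 FPKM, 15 had a mean of 1 to 5, and 10 had a mean of at least 5. These 10 loci held 88.4% of the summed FPKM of all members. The list of histone genes often found polyadenylated, chosen from general knowledge, had 9 loci in the tables, of which 7 had a mean of at least 1 and 6 a mean of at least 5, and they held 71.05% of the summed FPKM. Of the other 63 loci, 18 had a mean of at least 1 and 4 a mean of at least 5. Among the loci at 0 were the copies of *HIST2H2AA4*, *HIST2H3C*, and *HIST2H4B*, which are near-identical and lie in a duplicated region, so their fragments could have been lost or split by the alignment.

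**Figure D1:**
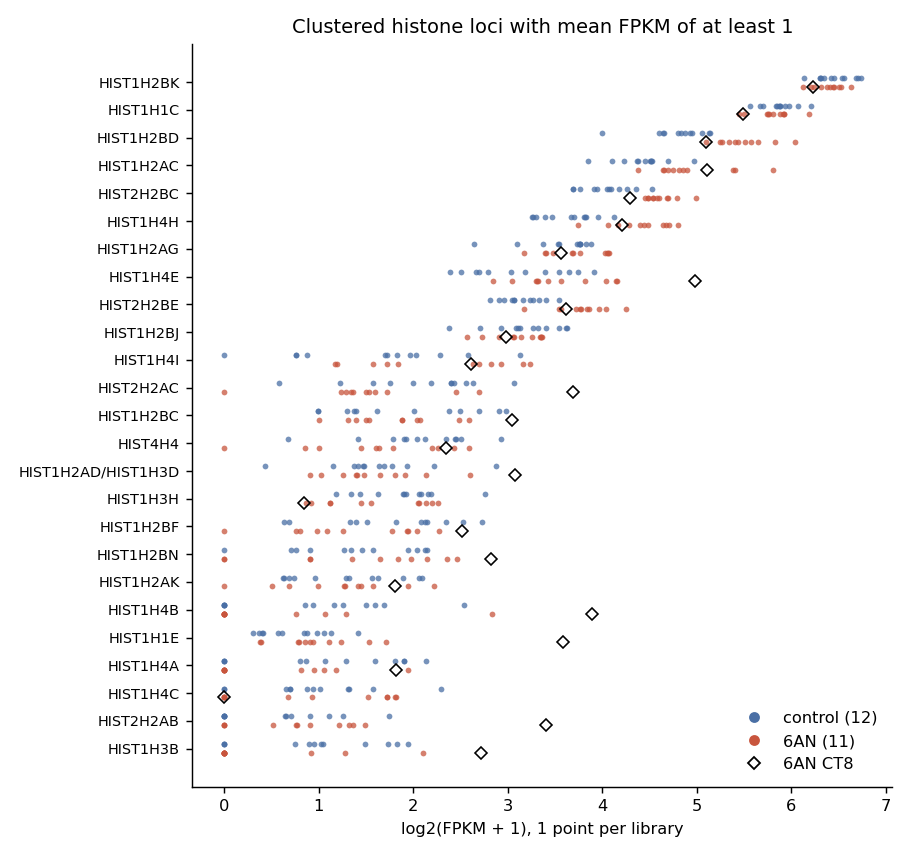
The plot gives log2(FPKM + 1) on the x axis for each of the 25 clustered histone loci with a mean FPKM of at least 1, ordered by mean on the y axis, with 1 point per library. Blue points are the 12 control libraries, red points 11 libraries of 6AN, and open diamonds the 6AN library at CT8, which lies to the right of all other points for 9 loci, from *HIST1H4E* down to *HIST1H3B*.

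H1 genes encode the linker histones. *HIST1H1C*, which encodes H1.2, had a control FPKM of 46.5 at the lowest, 57.6 at the median, and 73.2 at the highest, and a 6AN FPKM of 42.8, 54.2, and 72.1. The ranges of the conditions overlapped almost entirely. *HIST1H1E*, which encodes H1.4, had a mean of 1.296 FPKM. It ranged from 0.238 to 1.67 in control and from 0.299 to 2.27 in 6AN without CT8, where it had 11. Without that library its mean over the other 23 was 0.874, under the limit of 1. The next H1 gene, *HIST1H1A*, had a mean of 0.141. Among the 6 H1 loci, *HIST1H1C* was the only one with a mean of at least 5, and the 6 together summed to 59.0 FPKM ± 7.21 in control and 56.5 ± 7.85 in 6AN without CT8 (SD, n = 12 and 11 libraries).

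H2A and H2B genes often lie head to head and share a promoter region. The RefSeq starts placed 11 pairs of members on opposite strands with 193 to 247 bases between their starts (median 235). The members of a pair did not have to be alike in level. *HIST1H2AC* had a mean of 26 FPKM and its partner *HIST1H2BC* 3.17, across 245 bases. *HIST2H2BE* had 10.4 and its partner *HIST2H2AC* 3.29, across 235 bases. *HIST1H2AG* and *HIST1H2BJ* were closer, with 11.7 and 7.99, across 247 bases.

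Among 17 H2A loci, *HIST1H2AC*, *HIST1H2AG*, and *HIST2H2AC* were the highest. *HIST1H2AC* ranged from 13.4 to 30.5 FPKM in control with a median of 21.3, and from 19.8 to 54.9 in 6AN with a median of 27.5. Its highest values were the 6AN libraries at CT36 (54.9), CT24 (41.5), and CT40 (40.8). *HIST1H2AG* ranged from 5.24 to 13.8 in control (median 12.4) and from 7.99 to 15.8 in 6AN (median 11.9), and the conditions overlapped. *HIST2H2AC* had a mean of 3.29 and its highest value, 11.9, in the 6AN library at CT8. At the limit of 1 FPKM, *HIST2H2AB* (1.09) was just inside and *HIST1H2AI* (0.727) just outside. *HIST2H2AB* had 9.60 in the 6AN library at CT8 and at most 2.35 in any other, and its mean without that library was 0.716.

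H2B gave the largest summed level of the histone types, 156.4 FPKM ± 17.6 in control and 180 ± 18.96 in 6AN without CT8. *HIST1H2BK* was the most abundant member of all. Its control FPKM was 69.1 at the lowest, 85.5 at the median, and 105.5 at the highest, and its 6AN FPKM was 68.6, 83.3, and 97.99. The locus is 8566 bp long in the tables (chr6:27138293-27146858, hg38) and contains *HIST1H4I*, which is listed with the same span, so fragments of this pair may not be fully separated. *HIST1H2BD* ranged from 15.01 to 34.2 in control (median 27.95) and from 33.2 to 65 in 6AN (median 41.9), and the 2 highest control values, at CT4 and CT8, lay above the 2 lowest of 6AN. *HIST2H2BC*, which RefSeq lists as the pseudogene H2BC20P, ranged from 11.9 to 22.1 in control (median 15.7) and from 18.6 to 30.9 in 6AN (median 22.6). *HIST2H2BE*, an H2B gene with a long transcript (2223 bp), ranged from 6.04 to 10.7 in control (median 7.68) and from 8.03 to 18.1 in 6AN (median 12.7).

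H3 was the type with the lowest sum, 5.28 FPKM ± 2.16 in control and 3.88 ± 1.498 in 6AN without CT8, and 6 of its 13 loci were at 0 throughout. *HIST1H3H* had a mean of 2.49 and ranged from 1.27 to 5.78 in control and from 0.792 to 3.797 in 6AN. *HIST1H3B* (1.05) was just inside the limit of 1 and *HIST1H3E* (0.699) just outside. *HIST1H3B* was at 0 in 3 control libraries and in 8 of 6AN, with 5.56 in the 6AN library at CT8, which was 7 fragments. Its mean without that library was 0.858. A locus that carries both *HIST1H2AD* and *HIST1H3D* had a mean of 2.49 and cannot be assigned to a type.

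H4 was led by *HIST1H4H* and *HIST1H4E*. *HIST1H4H* (chr6:26285126-26285499, hg38) ranged from 8.56 to 16.4 FPKM in control with a median of 11.9, and from 12.4 to 26.8 in 6AN with a median of 20.4. These values were 6 to 23 fragments per library in control and 9 to 40 in 6AN. *HIST1H4E* ranged from 4.25 to 14.02 in control (median 7.63) and from 6.17 to 16.9 in 6AN without CT8, where it had 30.7. *HIST1H4I* had a mean of 3.60 FPKM, or 35 fragments in all of control and 57 in all of 6AN. *HIST1H4B* was at or under 6.16 in every other library and had 13.9 in the 6AN library at CT8.

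The comparison of 6AN with control asked how inhibition of the pentose phosphate pathway affected these transcripts. The tables of control and 6AN were normalized separately, so differences between them are given as a description, with the SE over time-matched pairs and with no test. Over all 13979 loci with a mean FPKM of at least 1, the median log2 ratio of 6AN to control, computed on means plus 1, was -0.04. Of the 10 abundant histone loci, 6 had ratios of 0.54 to 0.75, while the 2 most abundant lay near 0. A bulk measurement cannot tell apart fewer cells with a transcript and less of it per cell.

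*HIST1H4H* had the highest log2 ratio, 0.75, and was higher in 6AN at 12 of 12 time points. The mean of its 12 time-matched log2 differences was 0.75 ± 0.11 (SE), and without CT8 it was 0.81 ± 0.10. *HIST1H2BD* had a ratio of 0.66 and was higher at 11 of 12 time points, and CT8 was the exception. *HIST2H2BE* had a ratio of 0.62 and *HIST1H2AC* of 0.55, each higher at 11 of 12 time points. *HIST2H2BC* had a ratio of 0.54 and was higher at all 12. Without CT8 the ratio was 0.72 for *HIST1H2BD*, 0.63 for *HIST2H2BE*, 0.57 for *HIST1H2AC*, and 0.53 for *HIST2H2BC*. *HIST1H4E* had a ratio of 0.58, which was 0.38 without CT8, and was higher at 9 of 12 time points. In linear terms the mean FPKM of these 6 loci was 1.48 to 1.75 times that of control.

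*HIST1H2BK* and *HIST1H1C* lay near 0, with ratios of -0.09 each. Their time-matched differences were -0.09 ± 0.08 and -0.09 ± 0.06 (SE, n = 12), and *HIST1H2BK* was higher in 6AN at 5 of 12 time points and *HIST1H1C* at 3. *HIST1H2BJ* (-0.08 ± 0.13) and *HIST1H2AG* (0.14 ± 0.16) had time-matched differences smaller than their SE. Taken over the 10 loci with a mean of at least 5, the median ratio was 0.54 with and 0.46 without CT8, and 7 of 10 were above 0 either way. Among all 10090 loci with a mean of 5 or more, 43.7% were above 0, and the median was -0.05.

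**Figure D2:**
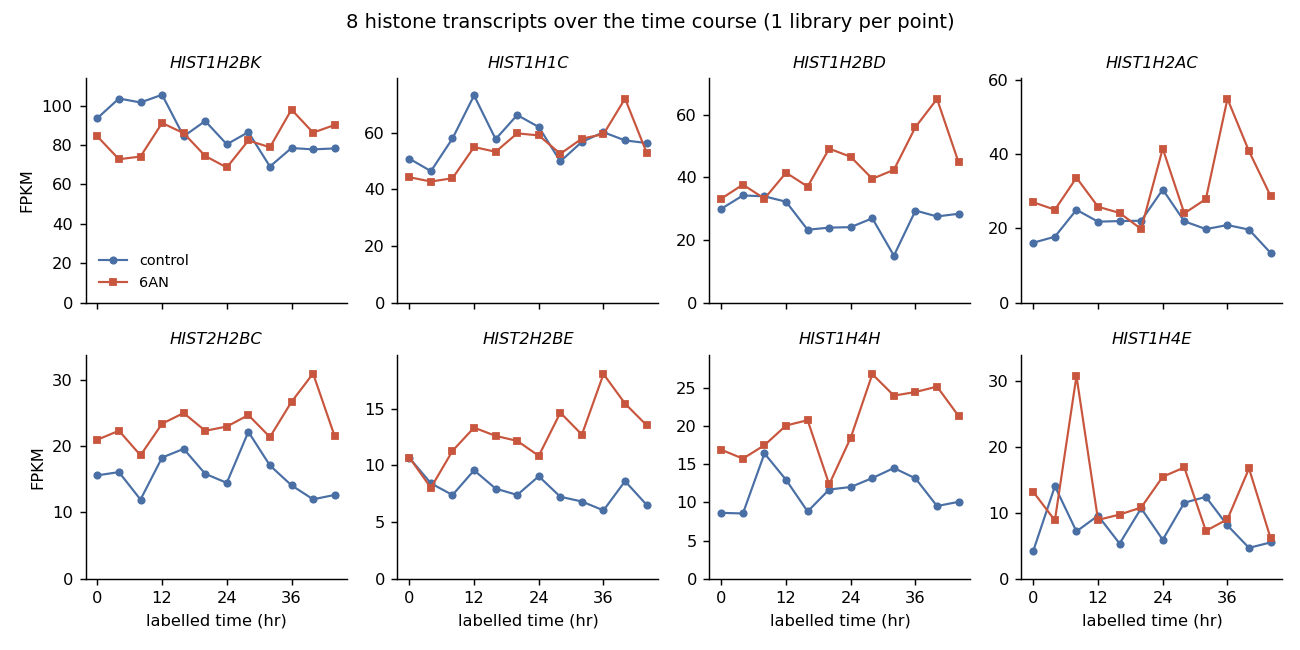
Each panel plots FPKM, on a linear axis from 0, against the labelled time in hours for 1 histone locus, with 1 library per point, control in blue circles and 6AN in red squares. *HIST1H2BK* and *HIST1H1C* cross between conditions, *HIST1H4H* and *HIST2H2BC* lie higher in 6AN at all 12 time points, and *HIST1H4E* shows a single high value of 30.7 in 6AN at CT8.

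The 15 loci with a mean of 1 to 5 FPKM gave another picture. Their median ratio was -0.03 with CT8 and -0.13 without it, with 6 of 15 above 0 and then 5 of 15. Among all 3889 loci with a mean of 1 to 5, 48.4% were above 0, and the median was -0.01. Several of the 15 ratios moved by more than 1.5 times without the CT8 library. The ratio of *HIST1H1E* was 0.73 with CT8 and 0.22 without, that of *HIST2H2AB* 0.64 and 0.15, and that of *HIST1H2BN* 0.29 and 0.09. That of *HIST1H4B* changed from 0.37 to -0.25. The lowest ratios were those of *HIST1H4A* (-0.46), *HIST4H4* (-0.30), *HIST1H2BF* (-0.30), *HIST1H3H* (-0.29), and *HIST2H2AC* (-0.21). Without CT8 that of *HIST2H2AC* was -0.60, that of *HIST1H4A* -0.67, and that of *HIST1H3H* -0.13, and *HIST1H3B* went from -0.17 to -0.46. Apart from *HIST1H3H*, the SE of the time-matched differences was 0.26 to 0.37 for these, and that of *HIST1H3H* was 0.20. *HIST1H4I* had a ratio of 0.59 with an SE of 0.35, on few fragments.

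**Figure D3:**
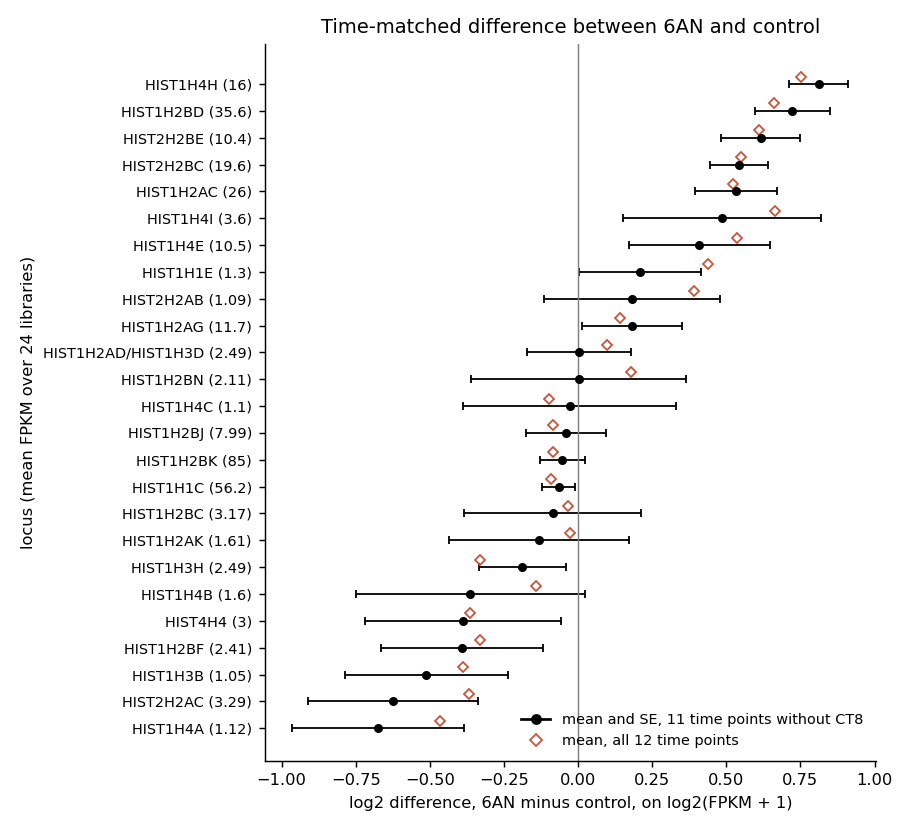
The x axis gives the time-matched difference, 6AN minus control, on log2(FPKM + 1), and the y axis the 25 loci with their mean FPKM in parentheses. Black points with bars are the mean and SE over 11 time points without CT8, open diamonds the mean over all 12, and the diamonds lie to the right of the points for the loci that were high in the 6AN library at CT8, such as *HIST1H1E* (0.44 compared with 0.21).

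Over all 25 loci, 13 had a ratio above 0 (12 without CT8), compared with 45.0% of all loci, and the median was 0.13 with CT8 and -0.04 without. None was lower at all 12 time points, where 20.4% of all loci were, and 2 were higher at all 12, where 13% of all loci were. The FPKM ranges of the conditions overlapped for 25 of 25 members, whereas 6AN lay wholly below control for 10.3% and wholly above it for 5.89% of all loci. Most members rested on few fragments per library, and the part of this in these shares was not tested. Of the 7 often polyadenylated loci with a mean of at least 1, 3 had a ratio above 0. Their median was -0.09 with CT8 and -0.06 without. For the 10 abundant loci the summed FPKM was 229.1 to 301.5 in control (median 251.9) and 250.6 to 375.5 in 6AN (median 292.5). It was higher in 6AN at 10 of the 11 time points other than CT8, with CT4 as the exception. At CT8 it was lower in 6AN too, with 280.9 compared with 285.8 in control. For the other 62 loci the sum was 27 to 49.3 in control (median 35.6), 20.5 to 36.8 in 6AN without CT8 (median 32.1), and 101.3 in the 6AN library at CT8.

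**Figure D4:**
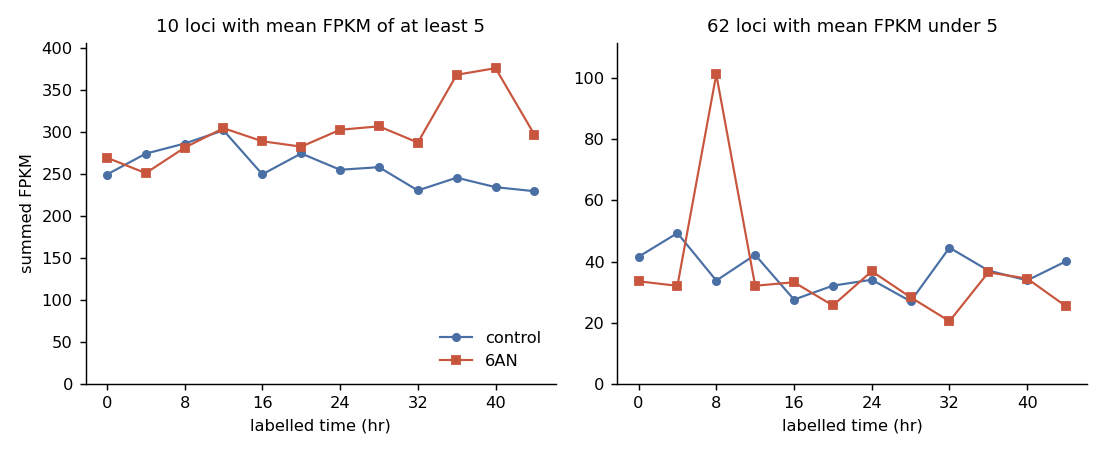
The plots give the summed FPKM, on linear axes from 0, against the labelled time in hours for the 10 loci with a mean FPKM of at least 5 and the 62 loci with a mean under 5, 1 library per point, control in blue circles and 6AN in red squares. The sums of the abundant loci lie farthest apart at CT36 (367.6 in 6AN and 245.2 in control) and CT40 (375.5 and 233.9), and the sum of the other loci has 1 high value, 101.3, in 6AN at CT8.

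The difference widened with time for several abundant loci. For *HIST1H2BD* the log2 ratio was 0.37 over the first 6 time points and 0.93 over the second 6. For *HIST2H2BE* it was 0.37 and 0.86, and for *HIST1H2AC* 0.30 and 0.76. In the 2 most abundant loci it did not widen but changed sign, from -0.26 to 0.10 for *HIST1H2BK* and from -0.23 to 0.05 for *HIST1H1C*. These changes with time were not tested, because they compare the tables.

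Trends within each condition were tested with limma on log2(FPKM + 1), with Benjamini-Hochberg adjustment over the 13979 loci and calls at an adjusted p of at most 0.05. Since each time point is 1 library, p-values measure the scatter around the line between libraries. In control, 0 of 25 members rose and 1 fell, where 3.13% of all loci rose and 3.13% fell. The 1 was *HIST1H2BK*, which fell by 0.26 ± 0.06 (SE) on the log2 scale per 24 hr (limma, adjusted p = 0.0213). Its control FPKM was 93.6 to 105.5 at the first 4 time points and 69.1 to 86.5 at the last 5. Without CT4 its adjusted p was 0.0577.

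In 6AN, 3 of 25 members rose and 1 fell, where 12.3% of all loci rose and 13.1% fell. *HIST1H2BD* rose by 0.36 ± 0.09 (SE, limma, adjusted p = 0.0162) per 24 hr, with 33.2 FPKM at CT0, its highest value of 65 at CT40, and 44.8 at CT44. *HIST2H2BE* rose by 0.33 ± 0.09 (adjusted p = 0.0248) and *HIST1H1C* by 0.27 ± 0.07 (adjusted p = 0.0185). *HIST1H4H*, with 0.32 ± 0.12, did not pass the test (adjusted p = 0.0695). *HIST1H3B* fell by 1.07 ± 0.35 on the log2 scale (adjusted p = 0.0445), but it held 20 fragments over the 12 libraries, and it was called without CT0, CT16, or CT20 but not without any 1 of the other 9 (adjusted p = 0.0609 without CT8). Without CT8, *HIST1H2BF* had an adjusted p of 0.0217, on 34 fragments over all 12 libraries, and *HIST1H2BD*, *HIST2H2BE*, and *HIST1H1C* remained called.

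Each of these 3 calls was lost without at least 1 other library. *HIST1H2BD* had an adjusted p of 0.0557 without CT0. *HIST2H2BE* had 0.067 without CT4 and 0.0541 without CT40. *HIST1H1C* had 0.0626 without CT0, 0.0563 without CT4, and 0.0507 without CT40. The slopes stayed above 0 throughout, from 0.28 to 0.45 for *HIST1H2BD*, from 0.25 to 0.40 for *HIST2H2BE*, and from 0.22 to 0.355 for *HIST1H1C*. With the second 6 time points against the first 6, none of the 4 loci called in 6AN passed the test (limma, adjusted p = 0.0979 for *HIST1H2BD*, 0.127 for *HIST2H2BE*, 0.108 for *HIST1H1C*, and 0.0734 for *HIST1H3B*), and *HIST1H4H* was called (adjusted p = 0.0309). In control the slopes were -0.20 for *HIST1H2BD*, -0.23 for *HIST2H2BE*, and 0.04 for *HIST1H1C*, none of them called. The difference in slope between the conditions was not tested.

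A rhythm of 24 hr was tested with limma as a cosine and sine beside the straight line. In control, 0 of 25 members were called (limma, adjusted p of at most 0.05), where 0.00715% of all loci (1 of 13979) were, and 0 members had an unadjusted p under 0.05. In 6AN, 0 of 25 members were called, where 0% of all loci were, and 1 member had an unadjusted p under 0.05. That member was *HIST1H4C*, with an adjusted p of 0.507 by limma and 15 fragments in all of 6AN. Amplitudes of the 10 abundant members ranged from 0.03 (*HIST1H2BK*) to 0.45 (*HIST1H4E*) in control and from 0.10 (*HIST2H2BC*) to 0.21 (*HIST1H2AG*) in 6AN on the log2 scale. *HIST1H2BK* had 0.03 in control and 0.12 in 6AN, and *HIST1H1C* 0.15 and 0.11. *HIST1H4H* had the lowest unadjusted p of the members in control, 0.060, with an amplitude of 0.27. A test that called at most 1 locus in a condition cannot show that histone mRNAs lack a rhythm.

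Genes that work beside the clustered histones were read from 4 lists. Where a gene below is not among the most abundant of its list and was not called, it was picked after its values were seen. Replacement histones, which are made from genes outside the clusters, had 12 loci, 11 with a mean FPKM of at least 1. The list includes *H2AFX* and *CENPA*, and whether each gene in it is made throughout the cycle was not tested. The ratio was below 0 for 11 of 11, with a median of -0.48, and the ranges lay apart for 6 of 11 (7 without CT8), all with 6AN below. Of all 13979 loci, 7685 had a ratio below 0, and 6AN lay wholly below control for 10.3%. *H2AFZ*, which encodes H2A.Z, ranged from 424.2 to 554.4 FPKM in control and from 272.8 to 324.7 in 6AN (log2 ratio -0.75). *H2AFX*, which encodes the histone marked at DNA breaks, ranged from 78.6 to 119.9 in control and from 25.4 to 66.8 in 6AN (-1.09). *H3F3B*, a gene of H3.3, ranged from 232.4 to 282.5 and from 179.8 to 218.8 (-0.33). *H1F0*, the linker histone of resting and differentiated cells, was the most abundant (559.8 to 708 in control and 476.2 to 619.8 in 6AN, -0.18). Within 6AN, 3 of these genes rose with time (limma), *H1F0*, *H3F3B*, and *H2AFY2*, and 5 fell, *H2AFX*, *CENPA*, *H2AFV*, *H1FX*, and *H2AFY*. Of all loci, 12.3% rose and 13.1% fell in 6AN. In control 0 of the 11 were called, where 3.13% of all loci rose and 3.13% fell.

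S-phase genes, a list of 16 with the DNA helicase subunits MCM2 to MCM7, PCNA, and ribonucleotide reductase, had a median ratio of -0.93. The ratio was below 0 for 16 of 16, where it was for 7685 of all 13979 loci. The ranges lay apart for 14 of 16, all with 6AN below, where 6AN lay wholly below control for 10.3% of all loci. *RRM2*, the small subunit of ribonucleotide reductase, ranged from 64.3 to 81.7 FPKM in control and from 12.1 to 31.6 in 6AN (-1.74). *PCNA*, the sliding clamp, ranged from 97.8 to 122.6 and from 53.7 to 69.3 (-0.82). Within 6AN, 11 of the 16 fell with time and 0 rose (limma), where 13.1% of all loci fell and 12.3% rose. In control 0 were called, where 3.13% of all loci rose and 3.13% fell. *CDT1*, a licensing factor, had a ratio of -0.06 with overlapping ranges, and the ranges of *CCNA2* (-0.74) overlapped too.

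Histone chaperones, which hand new histones to DNA, were below 0 for 11 of 11 with a median of -0.61. Among all 13979 loci, 7685 were below 0. The ranges lay apart for 8 of the 11, all with 6AN below, where 10.3% of all loci lay wholly below control. *NASP*, which binds soluble H3 and H4, ranged from 142.6 to 170.8 FPKM in control and from 71.7 to 89.3 in 6AN (-0.91). *ASF1B*, a chaperone of dividing cells, had a ratio of -1.09 and *CHAF1A*, a subunit of CAF-1, of -0.92. Within 6AN, 4 of the 11 fell with time, *ASF1B*, *CHAF1A*, *CHAF1B*, and *HIRA*, and 1 rose, *ATRX* (limma). Of all loci, 13.1% fell and 12.3% rose.

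Genes that transcribe and process histone mRNA were mixed. Of 16, 12 had a ratio below 0 and 4 above, with a median of -0.15, where 7685 of all 13979 loci were below 0. The ranges lay apart for 2, *NCBP1* and *CASP8AP2*, both with 6AN below. Across all loci 10.3% lay wholly below control. *SLBP*, which binds the stem-loop, ranged from 18.7 to 26.7 FPKM in control and from 16.6 to 20.8 in 6AN (-0.26). *NPAT*, the coactivator of histone loci, had a ratio of -0.30. *LSM11*, a subunit of the U7 particle that cuts histone mRNA, had a ratio of 0.48 and was higher at 12 of 12 time points, *HINFP*, which binds H4 promoters, had 0.49, and *ZNF473*, a U7-associated protein, 0.34. In control 1 gene of this list was called, *CSTF2*, which fell, where 3.13% of all loci fell. In 6AN 2 of the 16 rose, *CPSF2* and *NCBP2*, and 2 fell, *POU2F1* (OCT1) and *UPF1*. These counts are near the shares of all loci in 6AN, of which 12.3% rose and 13.1% fell.

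**Figure D5:**
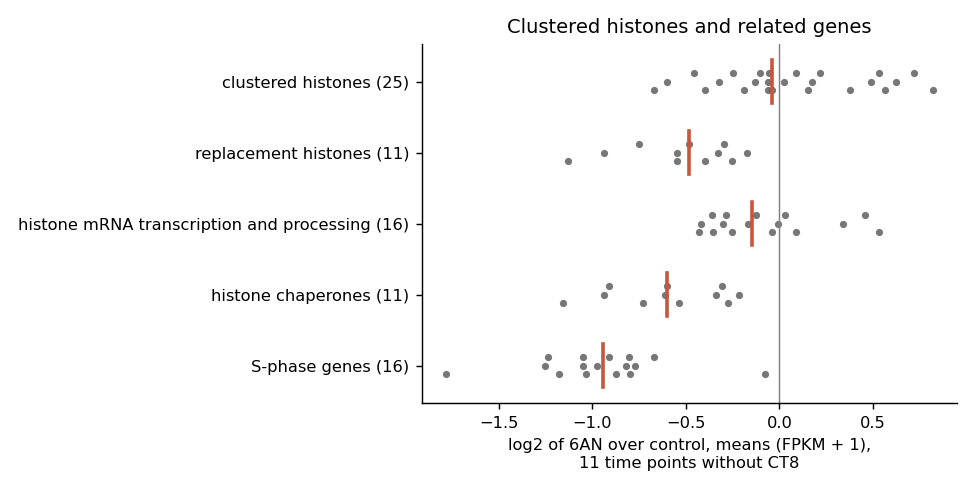
The x axis gives the log2 ratio of mean 6AN to mean control FPKM, each plus 1, over 11 time points without CT8, and the y axis the clustered histones and 4 lists of related genes with the number of loci. Each point is 1 locus and red bars are medians, which lie at -0.04 for the clustered histones and at -0.94 for the S-phase genes. The clustered histones spread on both sides of 0, and how well their mRNAs without a poly(A) tail were captured was not tested.

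BMAL1 and CLOCK sites near histone loci were read from the merged list of 4001 peaks (hg38), which the authors called separately in the 4 libraries and joined. Within 5 kb of the 25 members with a mean FPKM of at least 1 there were 2 peaks, near 3 members (12%), where 29.7% of all 13979 loci had a peak. The search covered the whole span of a locus plus 5 kb on each side, so longer loci were searched over more bases. Median spans were 564 bp for members with a mean of at least 5 FPKM and 448 bp for those of 1 to 5. The share of all loci was not matched for length, so it does not show whether histone loci are poor in sites. The 2 peaks were called in the BMAL1 library of 6AN and in none of the other libraries. One lay over the promoter of *HIST1H4E* (chr6:26204511-26204711) with a peak score of 20.9 and its center 1 bp past the start, and it also lay 4523 bp from *HIST1H2BF*. The other lay over the promoter of *HIST1H4H* (chr6:26285447-26285647) with a score of 12.7 and its center 13 bp before the start. The median score of the 2314 BMAL1 peaks in 6AN was 18.4. The printed promoters overlap these peaks by 99 and 113 bases. There were 0 sites shared by CLOCK and BMAL1 within 5 kb of any member, so H3K4me3 and H3K9ac, which were quantified at shared sites, have no value here. Each antibody and condition had 1 library, so a peak called in one and not in another has no replicate check.

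As a check of the cell type, 1 of 5 markers of other cell types had a mean FPKM of at least 1. *RUNX2*, a transcription factor of bone, had 11.6 to 17.6 FPKM over the 24 libraries, while *COL1A2*, a collagen of bone matrix, was at most 0.106. *PTPRC*, a blood cell marker, was at most 0.446 and *ALB*, a liver gene, at most 0.104, whereas *SNAP25*, a neuronal gene, had 2.66 to 4.84 and *EPCAM*, an epithelial gene, 0.362 to 1.69.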

How the data were processed

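RNA was sequenced from *Bmal1*:*luc* U2OS cells (24 libraries) and chromatin from the same line (10 libraries). The authors deposited FPKM per locus, with a separate table and a separate normalization for each condition. The submitters' processing notes name TopHat, Bowtie, Cufflinks, Bowtie2, and HOMER with build hg38, and versions are not given in the sources used here. For ChIP-seq, the authors deposited a HOMER score for each merged peak and a signal, in scaled tags, at shared sites. Of the columns that hold one sample, 0 were unmapped.

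Levels and differences came from Python 3.11.15 with NumPy 2.4.6 and pandas 2.3.3, and plots from matplotlib 3.10.9. Levels are means ± SD over time points. Time trends and rhythms (24 hr) were tested within a table with limma 3.58.1 in R 4.3.3 (lmFit, eBayes with a mean-variance trend) on log2(FPKM + 1) over 13979 loci with a mean FPKM of at least 1, after tests on simulated data. The conditions were compared as log2 of mean FPKM plus 1, as time-matched differences, and by range, with no test. FPKM values are corrected for fragment length: about 204 bp came off each locus length, which raises FPKM per fragment in short histone genes. Fragments per library were read from the steps between FPKM values. Current symbols were matched by overlap in RefSeq, and promoters are from RefSeq (GRCh38.p14). Genes were named by a rule: per type the 3 highest means, the 5 lowest and 5 highest ratios, called members, loci next to the limit of 1 FPKM, members with a peak within 5 kb, and the highest and called genes of each list. The members, lists, and tests were chosen with earlier results of these data known. Alternatives covered pseudocounts, filters, rescaling, other models, windows, and leaving out each time point. The paper describes extraction in triplicate, and whether extracts were pooled is not given in the sources used here. One marker of the cell type is not reported here.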

Additional observations from a re-analysis of the deposited data

How the results depend on the processing

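Values rest on 1 library per time point, and fragments per library limit members under 5 FPKM. The number of members called in the control trend was 1 in all alternatives except without CT4 (range 0 to 1 over single time points). In the 6AN trend it was 4, and 1 to 5 when single time points were left out. It was 1 for the second 6 time points against the first 6, where *HIST1H4H* was called and none of the 4 was. No member was called rhythmic in any of 16 alternatives per condition. The median log2 ratio of the members was 0.13. Leaving out single time points, it ranged from -0.04 (without CT8) to 0.22 (without CT4), and 12 to 15 members were above 0. It was 0.30 with 16 above 0 over the first 6 time points, 0.05 with 14 over the second 6, and -0.06 with 17 of 40 for members with a mean FPKM of at least 0.1. Without the 6AN library at CT8, a choice made after seeing the data, 22 members had a mean FPKM of at least 1. Of the 25 members, 2 had a peak within 1 kb (27.3% of all loci did), 3 within 5 kb (29.7%), and 4 within 25 kb (38.6%). These shares of all loci were not matched for locus length. The differences between conditions were paired by time point, and no test was made across the separately normalized tables.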
